A study of Mus musculus with 6 samples.

Results

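The genes described here encode ATP-binding cassette (ABC) proteins that move lipids: Abca1, Abca2, Abca3, Abca5, Abca6, Abca7, Abca8b, Abca9 and Abcg1. They were taken by symbol, with no measured value in the rule, though with earlier results of these data known, and all 9 had exactly 1 row among the 19048 transcript rows of the deposited table. The RNA came from antigen-inexperienced helper T cells (naive CD4 T cells) of C57BL/6 mice and was sequenced. The 3 Trim28 KO libraries (KO1 to KO3) came from mice described as Trim28 knockouts, and the 3 wild-type libraries (WT1 to WT3) from their littermates. KRAB zinc finger proteins recruit Trim28 to chromatin to repress transcription. The question is what loss of Trim28 does to transcript levels before activation. Age, the part of Trim28 that is removed, the promoter of any Cre used and whether each library is 1 mouse are not stated by the sources at hand, so the p-values below measure the spread between these libraries, which may be technical.

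ABC proteins use ATP to carry substrates across or within membranes. Those of the A subfamily, and Abcg1 of the G subfamily, move cholesterol and phospholipids: Abca1 loads them onto lipid-poor apolipoprotein A-I, and Abcg1 passes sterols on to lipoprotein particles. Both genes are classic targets of the liver X receptors (LXRs), nuclear receptors that sense oxysterols, and in mouse T cells sterol export through Abcg1 is known to limit membrane cholesterol and proliferation. Abca5, Abca6, Abca8b and Abca9 lie in a cluster of related genes on mouse chromosome 11.

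Values are normalized reads, that is, read counts divided by a size factor per library. The libraries held 22005759 to 44372701 reads. Trim28 itself stood at 738, 628 and 1247 normalized reads in KO1, KO2 and KO3, against 8429, 8287 and 9428 in WT1, WT2 and WT3. Cd4 ranged from 27990 to 32564 in KO libraries and from 31880 to 34970 in WT libraries, and Cd3d from 15774 to 18382 and from 17765 to 18917. KO3 stood apart in transcripts of other cells. The 6 B cell markers summed to 192, 188 and 1466 in KO1, KO2 and KO3, and to 172 to 321 in WT libraries. The 6 CD8 T and NK cell markers summed to 850, 800 and 4830 in KO1, KO2 and KO3 and to 648 to 1142 in WT libraries, and the 10 macrophage and monocyte markers to 140, 108 and 1367 and to 81.4 to 360. The 6 dendritic cell markers summed to 254, 152 and 789 in KO1, KO2 and KO3 and to 178 to 268 in WT libraries. Of the macrophage and monocyte markers, Ccr2 had 64.3, 37.9 and 883 normalized reads in KO1, KO2 and KO3 and 39.6 to 151 in WT libraries. Lyz2 had 17.1, 4.37 and 287 in KO1, KO2 and KO3 and 5.50 to 167 in WT libraries, while Cd14 had 1 read in all 6 libraries. Csf1r, of the same list, had 49.3, 51.0 and 144 in KO1, KO2 and KO3 and 20.9 to 38.6 in WT libraries. Ncr1, of the CD8 T and NK cell list, had 77.8, 64.1 and 341 and 51.7 to 53.3. In both genes every KO value exceeded every WT value, while the groups overlapped in all other markers of both lists. No marker of these lists passed the test (limma adjusted p 0.296 for Csf1r and 0.431 for Ncr1). KO2 and WT1 were the libraries with Y-linked transcripts (summed normalized reads 12677 and 13625), and the other 4 libraries held at most 2.39.

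Trim28 KO libraries of naive CD4 T cells held more Abca1 mRNA, more Abca5 mRNA and Abca6 mRNA that was not detected in WT libraries. Of the 9 genes, 8 were tested (a mean of at least 10 normalized reads over the 6 libraries) and 3 rose, none fell and 5 did not pass, at a Benjamini-Hochberg adjusted p under 0.05 in limma, over 13022 rows. Over all tested rows 1.51% were called, 1.19% as rises and 0.315% as falls. Abca6 and Abca8b passed the filter on low values only through the KO libraries, so the count over the 8 is not used as support. Of the 6 genes that also had a WT mean of at least 10, Abca1 and Abca5 rose. Groups did not overlap in 4 of those 6 genes, and in 18.8% of all tested rows. With 3 libraries against 3, an exact permutation test on a single gene can give no p below 0.1.

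**Figure D1:**
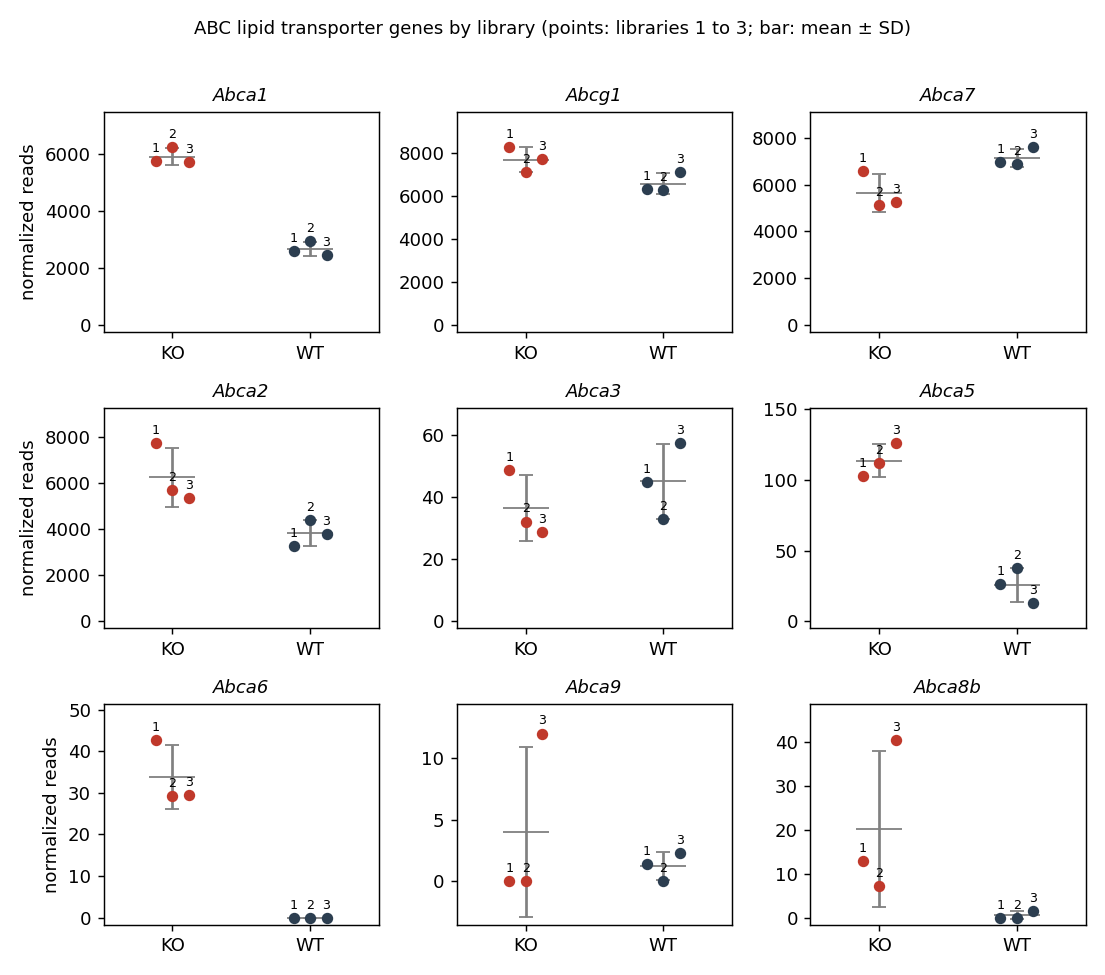
Normalized reads of each of the 9 genes (vertical axes, each with its own scale) in KO libraries on the left and WT libraries on the right; points are libraries, numbered 1 to 3, and bars give mean ± SD. The groups do not overlap in Abca1, Abca2, Abca5, Abca6, Abca7 and Abca8b, as in 18.8% of all tested rows. Of these genes only Abca1, Abca5 and Abca6 were called. The Abca9 reads of the KO group lie in KO3.

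Per length, the 4 most abundant genes kept their order in both genotypes, while 4 of the 5 scarce ones changed places, some of them on very few reads. On the scale of normalized reads per kilobase of transcript, Abcg1 led in KO libraries at 1319 on average, followed by Abca7 at 859, Abca2 at 778 and Abca1 at 574. In WT libraries Abcg1 averaged 1128, Abca7 1084, Abca2 476 and Abca1 259. Abca2 and Abca7 overlapped in KO libraries, at 667 to 961 for Abca2 and 777 to 1000 for Abca7. In WT libraries it was Abcg1 and Abca7 that overlapped, at 1080 to 1222 for Abcg1 and 1042 to 1153 for Abca7. The other 5 genes were at least an order of magnitude lower in either genotype. Among them Abca5 had the highest mean in KO libraries, at 13.8, ahead of Abca6 (6.46) and Abca3 (5.63), whose ranges overlapped. In WT libraries Abca3 led these 5 at 6.94 and Abca5 followed at 3.12. The WT places of Abca6, Abca8b and Abca9 rest on 0, 2 and 4 reads in all. The KO place of Abca9 rests on 15 reads, all in KO3.

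Abca1, the exporter that loads cholesterol and phospholipid onto apolipoprotein A-I (row NM_013454, chromosome 4, positions 53030789 to 53159988 of mm10), rose. It had 5743, 6231 and 5708 normalized reads in KO1, KO2 and KO3, against 2598, 2935 and 2444 in WT1, WT2 and WT3. The 3 KO values lay within a narrow band, all above the highest WT value. The means were 5894 ± 292 in KO libraries and 2659 ± 251 in WT libraries (SD, n = 3 each), which is 1.15 on the log2 scale (95% interval 0.93 to 1.37, SE 0.10, limma adjusted p 0.000471). Leaving out each library in turn gave log2 fold changes from 1.09 to 1.22 and kept the call each time. Without KO3 the log2 fold change was 1.17. Between the libraries with Y-linked transcripts, the value was 6231 in KO2 and 2598 in WT1. The libraries without them had 5743 and 5708 in KO1 and KO3 and 2935 and 2444 in WT2 and WT3. That comparison of 2 KO with 2 WT libraries, chosen after the data were seen, gave a log2 fold change of 1.096 and did not pass (limma adjusted p 0.0664), in a fit where 0.282% of all rows were called.

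The sequence upstream of Abca1 is shown because it carries the sterol response element through which LXRs are known to act on this gene. Capitals mark matches of a nuclear receptor repeat, searched as GGTNA, 5 bases of any kind and GGTNA again, which is the spacing that LXR and its partner RXR bind, and of GGGCGG, the GC box bound by Sp1-type factors, each searched on both strands without overlap between them here. The 250 bases before the start given by RefSeq, which lies within the span of the row above (RefSeq, GRCm38.p6, chr4:53159896-53160145, minus strand) read, 5′ to 3′:
Abca1: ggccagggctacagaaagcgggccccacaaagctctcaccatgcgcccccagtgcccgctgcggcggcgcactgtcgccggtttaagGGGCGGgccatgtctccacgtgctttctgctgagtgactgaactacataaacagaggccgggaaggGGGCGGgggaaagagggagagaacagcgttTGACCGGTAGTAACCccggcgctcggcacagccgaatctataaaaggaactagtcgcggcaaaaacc
The run of 15 capitals is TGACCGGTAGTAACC, which reads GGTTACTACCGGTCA on the other strand, and its first base lies 67 bases before the start. A match of this motif was found in 204 of 32851 upstream windows of the same length (0.621%), and in none of the other 6 genes of the group that had a window. Abcg1 and Abca6 had no window and were not searched. GC boxes numbered 2 in this window, and 32.7% of all windows held at least 1. Such a match describes the letters and is not a measure of binding.

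Abcg1, the sterol exporter best studied in T cells (NM_009593, chromosome 17, 31057694 to 31117984), did not pass. It had 8260, 7104 and 7706 normalized reads in KO1, KO2 and KO3, against 6306, 6300 and 7124 in WT1, WT2 and WT3. KO2 lay just below WT3, so the groups overlapped. The log2 fold change was 0.23 (SE 0.09, 95% interval 0.01 to 0.44, limma adjusted p 0.365). The interval of Abcg1 lies wholly below that of Abca1, and the difference between these 2 genes was not tested. Both are LXR targets, and the part of LXR in either value was not tested.

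Abca7, which exports phospholipids and takes part in phagocytosis (NM_013850, chromosome 10, 79996453 to 80015572), had 6591, 5121 and 5271 normalized reads in KO1, KO2 and KO3. WT1, WT2 and WT3 had 6968, 6865 and 7598. All KO values lay below all WT values, KO1 only by a little. The log2 fold change was -0.34 (SE 0.11, 95% interval -0.60 to -0.09, limma adjusted p 0.238), which did not pass.

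Abca2, a lysosomal transporter best known from the brain, where it takes part in sphingolipid and cholesterol handling (NM_007379, chromosome 2, 25428599 to 25448544), had 7720, 5679 and 5359 normalized reads in KO1, KO2 and KO3. The WT libraries had 3267, 4412 and 3794. Every KO value exceeded every WT value, with KO1 well above KO2 and KO3. The log2 fold change was 0.70 (SE 0.16, 95% interval 0.34 to 1.06), and it did not pass (limma adjusted p 0.0894). Without KO3 it passed (log2 fold change 0.80, limma adjusted p 0.0201), in a fit where 4.3% of all rows were called.

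Abca3, which fills the lamellar bodies of lung epithelial cells with surfactant lipid (NM_013855, chromosome 17, 24351921 to 24410204), was low. It had 48.6, 32.1 and 28.7 normalized reads in KO1, KO2 and KO3, and 44.6, 33.01 and 57.2 in WT1, WT2 and WT3. The groups overlapped, and the log2 fold change of -0.30 (95% interval -1.03 to 0.44, limma adjusted p 0.746) leaves changes of either sign within its interval. The annotated span of Abca3 shares 724 bases with that of D330041H03Rik, which was more abundant (358 ± 23.0 normalized reads in KO libraries and 325 ± 36.5 in WT libraries, SD, n = 3 each), and 138 bases with that of Abca17. Whether counting used the strand is not stated by the sources at hand, which means that reads of the shared stretches cannot be told apart.

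The cluster genes with a row span 406 kb of chromosome 11 in mm10, from position 109932206 to 110337723. Their order is Abca8b, Abca9, Abca6 and Abca5, all on the minus strand, and genes of the cluster without a row are not covered. Transcripts of these genes were scarce in WT libraries. Abca5, which encodes a protein of late endosomes and lysosomes (NM_147219, 110269369 to 110337723), rose, with 103, 112 and 126 normalized reads in KO1, KO2 and KO3, against 26.5, 37.4 and 13.1 in WT1, WT2 and WT3. The lowest KO value was well above the highest WT value. The means were 114 ± 11.6 in KO libraries and 25.7 ± 12.2 in WT libraries (SD, n = 3 each), which is 2.21 on the log2 scale (95% interval 1.39 to 3.04, SE 0.36, limma adjusted p 0.0209). The call was lost without WT1, without KO1 and without KO2 (limma adjusted p 0.0821, 0.0832 and 0.109), while the log2 fold change stayed between 1.81 and 2.54 over the 6 sets that leave out 1 library. It was also lost with Y-linked transcripts as a covariate (0.0562) and without the mean-variance trend (0.0786).

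Abca6 (NM_147218, 110174638 to 110251776), a gene of the same branch of the family whose transport role is less well defined, rose against a group in which it was not detected. It had 42.8, 29.1 and 29.5 normalized reads in KO1, KO2 and KO3, from 60, 20 and 37 reads, and 0 reads in each of WT1, WT2 and WT3. Every KO library thus held Abca6 reads and no WT library did. Set against a floor of 3 reads over the WT group, Abca6 was at least 34.1-fold higher in KO libraries. This takes the KO reads as exact, so it covers counting error of the WT group only. Its fitted value of 5.10 on the log2 scale (SE 0.63, limma adjusted p 0.00416) depends on the pseudocount of 1 added before the logarithm, and was 2.94 with a pseudocount of 5 and 6.08 with 0.5. Abca6 passed the filter only through the KO libraries, so its p is not used as support. The call was lost without KO1, the library with the most Abca6 reads (limma adjusted p 0.0855).

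Abca8b and Abca9 belong to the same branch, and the human relative of Abca8b is known to promote cholesterol export. Abca8b (NM_013851, 109932206 to 109996274) had 12.9, 7.29 and 40.6 normalized reads in KO1, KO2 and KO3, against 0, 0 and 1.54 in WT1, WT2 and WT3. All 3 KO values lay above the WT values, and 51 of the 74 reads of the KO group were in KO3. WT libraries held 2 reads in all, which gives a ratio of 32.3 (95% exact binomial interval 8.64 to 272, counting error only). The limma fit did not call it (log2 fold change 3.63, SE 0.89, adjusted p 0.114), and without KO3 or without KO1 its mean fell below the filter.

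Abca9 (NM_147220, 110100749 to 110168274) had 0, 0 and 12.0 normalized reads in KO1, KO2 and KO3, and 1.39, 0 and 2.32 in WT1, WT2 and WT3. Its 15 KO reads were all in KO3, and its mean was too low to be tested. KO3 was also the library with the most B cell, CD8 T and NK cell, and macrophage transcripts, and Abca5 too was highest there. The part of those cells in the reads of the cluster was not tested. Without KO3 the log2 fold change of Abca5 was 2.14 (limma adjusted p 0.0203) and that of Abca6 was 5.18 (0.00792). In bulk RNA, more cells with a transcript and more transcript per cell cannot be told apart. How reads shared by related members of the cluster were assigned is not stated by the sources at hand, so the split of reads among them is uncertain.

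**Figure D2:**
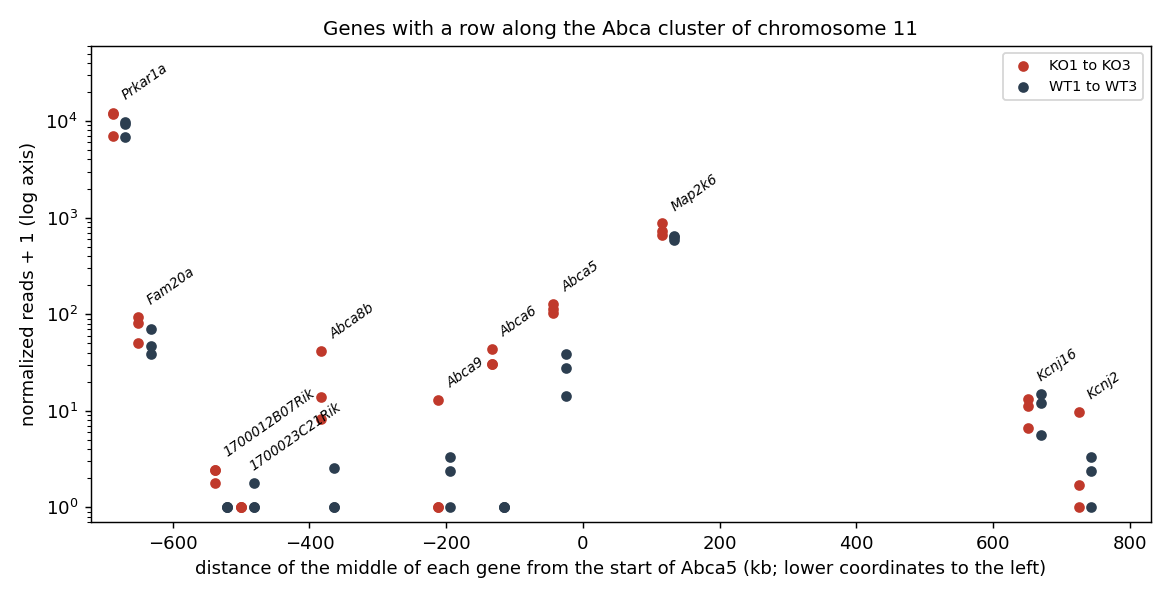
Normalized reads plus 1 (vertical, log axis) of each gene with a row along the Abca cluster of chromosome 11, against the distance of the middle of the gene from the start of Abca5 in kb; KO libraries are drawn left of WT libraries at each gene. Abca8b, Abca6 and Abca5 lie higher in KO libraries, while no gene outside the cluster passed the test.

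The upstream windows of 3 cluster genes are shown because they differ in base content. Abca6 had no window. The window of Abca8b lies wholly within the span of its row given above, and that of Abca9 partly. These windows thus need not be the sequence before the outermost start of the gene. Capitals again mark GGGCGG on either strand, and no match of the receptor repeat was found in these windows (RefSeq, GRCm38.p6, minus strand, chr11:110337717-110337966 for Abca5, chr11:109995846-109996095 for Abca8b and chr11:110168154-110168403 for Abca9).
Abca5: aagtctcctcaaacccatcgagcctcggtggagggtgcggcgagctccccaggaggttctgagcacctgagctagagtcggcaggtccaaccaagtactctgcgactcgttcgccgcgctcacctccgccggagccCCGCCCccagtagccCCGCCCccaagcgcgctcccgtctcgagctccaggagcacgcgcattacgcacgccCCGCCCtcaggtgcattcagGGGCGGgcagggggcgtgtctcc
Abca8b: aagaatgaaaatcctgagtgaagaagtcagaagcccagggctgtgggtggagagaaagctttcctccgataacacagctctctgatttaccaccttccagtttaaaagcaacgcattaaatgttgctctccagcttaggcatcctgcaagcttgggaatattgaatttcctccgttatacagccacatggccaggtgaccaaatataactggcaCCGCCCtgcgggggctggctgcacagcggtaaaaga
Abca9: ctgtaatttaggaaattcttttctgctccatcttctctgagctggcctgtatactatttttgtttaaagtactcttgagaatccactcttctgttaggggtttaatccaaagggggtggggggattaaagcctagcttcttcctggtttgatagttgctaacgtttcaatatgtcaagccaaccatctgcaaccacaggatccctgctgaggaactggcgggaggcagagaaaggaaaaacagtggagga
Abca5 has a window rich in CG pairs, with 25 of them, more than in 89.3% of all windows, and 4 GC boxes. Abca8b has 6, equal to the median of 6 over all windows, and 1 GC box. Abca9 has 2 and no GC box, at 44.4% G and C against a median of 52.4%. Outside the cluster, the windows of Abca1, Abca2 and Abca3 held 20, 20 and 21 CG pairs and that of Abca7 held 12. Of these 4 genes only Abca1 was called, and any relation of CG pairs to the calls was not tested.

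No neighbour of the cluster passed the test. Map2k6, a stress kinase gene that follows Abca5 at 61.4 kb, averaged 750.4 ± 109 normalized reads in KO libraries and 617 ± 34.5 in WT libraries (SD, n = 3 each). The groups did not overlap, but its log2 fold change of 0.27 did not pass (limma adjusted p 0.429). On the other side of the cluster, 1700012B07Rik had 4 reads in KO libraries and 0 in WT libraries, and 1700023C21Rik had 0 and 1. Beside Abca1, Nipsnap3b at 8.73 kb had a log2 fold change of -0.15 and the choline transporter gene Slc44a1 one of 0.12, neither of which passed (limma adjusted p 0.621 and 0.787). Mexis, a long non-coding RNA gene next to Abca1 known to raise Abca1 expression in mouse macrophages, held 1 read in KO libraries and 0 in WT libraries. Of all tested rows, 1.19% were called as rises. Over the 24 distinct neighbours, taken as the nearest 2 genes with a row on either side, 14 were tested and 1 rose. This was Dnah8, a dynein gene of sperm tails 182 kb from Abcg1, with 25230, 23454 and 20290 normalized reads in KO1, KO2 and KO3, against 13955, 14608 and 15236 in WT1, WT2 and WT3 (log2 fold change 0.65, limma adjusted p 0.0157). It was not called when any library other than KO3 was left out, with log2 fold changes from 0.58 to 0.74 over the 6 sets.

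Among the other ABC genes of the table, which include the multidrug exporters, the peptide transporters Tap1 and Tap2 and the translation factors Abce1 and Abcf1, 26 of 32 were tested and limma called none, with 7 at an unadjusted p under 0.05 and none called with voom weights. Over all tested rows 12.7% had an unadjusted p under 0.05. Their median log2 fold change was 0.09, against 0.0019 over all tested rows. The smallest p belonged to Abcb9, a lysosomal peptide transporter, at 1430 ± 187 in KO libraries and 1865 ± 167 in WT libraries (SD, n = 3 each; limma adjusted p 0.209), and without KO3 it was called as lower (limma adjusted p 0.0357). Abcb1b, a multidrug exporter, averaged 628 in KO libraries and 861 in WT libraries without passing (limma adjusted p 0.217). Abcc3, a carrier of conjugated organic anions, averaged 23.1 and 5.35 without passing (0.247), and Abcd2, a peroxisomal transporter of very long-chain fatty acids, 32.5 and 17.5 (0.333).

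**Figure D3:**
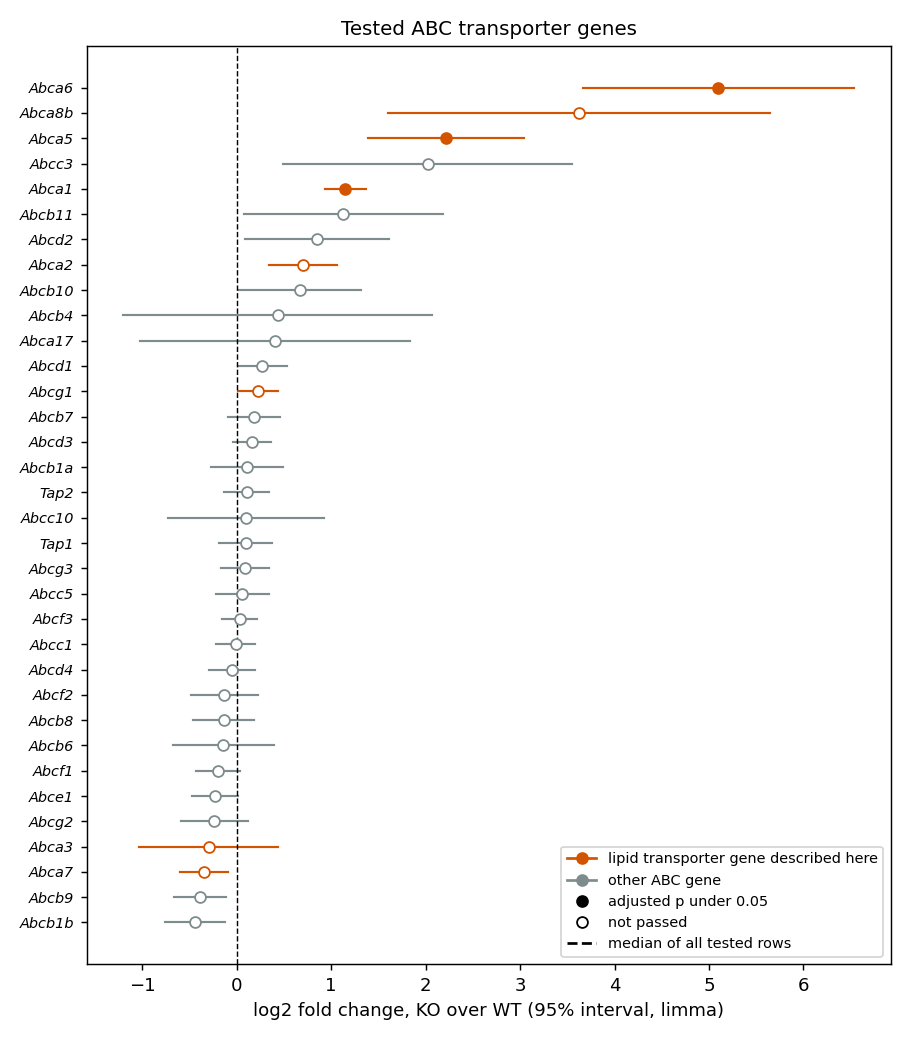
Log2 fold change of KO over WT with its 95% interval from limma (horizontal) for each tested ABC gene (vertical); orange marks the lipid transporter genes described here, grey the other ABC genes, and filled points an adjusted p under 0.05. The filled points are Abca6, Abca5 and Abca1. The value of Abca6 depends on the pseudocount, since it had 0 reads in WT libraries, and Abca6 was tested only through the KO libraries.

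Because Abca1 and Abcg1 are LXR targets, the rest of that pathway was examined. Of 18 other genes listed as LXR targets or linked to LXR, 17 had a row and 13 were tested, of which 3 rose, none fell and 10 did not pass, while 1.19% of all tested rows were called as rises. Of the 12 whose WT mean also reached the filter, 2 rose. These were Scd2 and Ttc39b, and the product of Ttc39b acts on LXR proteins (below). The median log2 fold change of the 13 tested genes was 0.07, against 0.0019 over all tested rows. Pltp, which encodes a plasma protein that transfers phospholipids between lipoproteins, had 48.6, 37.9 and 90.9 normalized reads in KO1, KO2 and KO3, against 4.18, 8.80 and 10.04 in WT1, WT2 and WT3 (log2 fold change 2.77, SE 0.47, limma adjusted p 0.0237). All KO values were above all WT values, with KO3 the highest. Its WT mean of 7.68 was under the filter, so it was tested only through the KO libraries and is not among the 2 rises counted without such genes.

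Scd2, a desaturase that makes monounsaturated fatty acids, had 3656, 3653 and 3255 normalized reads in KO1, KO2 and KO3, against 1938, 2633 and 2172 in WT1, WT2 and WT3 (log2 fold change 0.66, SE 0.12, limma adjusted p 0.0387). Ttc39b, whose product is known from mouse liver to promote the turnover of LXR proteins and so does not act as a lipid carrier, had 7437, 7900 and 6698 in KO1, KO2 and KO3 and 4818, 5588 and 4781 in WT1, WT2 and WT3 (log2 fold change 0.54, limma adjusted p 0.0397). The groups did not overlap in either gene. The calls depended on single libraries, while the log2 fold changes ran from 2.41 to 3.03 for Pltp, 0.56 to 0.78 for Scd2 and 0.48 to 0.61 for Ttc39b when 1 library was left out. Pltp was not called without WT1, WT2, WT3, KO1 or KO2, Ttc39b without those same libraries, and Scd2 without WT1, WT3, KO1 or KO2, whereas all 3 were called without KO3. With voom weights none of the 3 was called (limma adjusted p 0.0647 for Pltp, 0.0517 for Scd2 and 0.0558 for Ttc39b).

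The other tested genes of this list did not pass. Mylip, a ligase that degrades the receptor for low-density lipoprotein, averaged 4941 ± 239 in KO libraries and 4507 ± 117 in WT libraries (SD, n = 3 each; limma adjusted p 0.553). Srebf1, the regulator of fatty acid synthesis, averaged 3378 and 3494 (0.870), and Arl4c, a small GTPase linked to cholesterol export, 23886 and 28230 (0.277). Of 15 genes of the LXRs, their partners and related coregulators, 11 had a row and 8 were tested, and limma called none, with 1 at an unadjusted p under 0.05 (12.7% of all tested rows) and none called with voom weights. That gene was Ncoa1, a coactivator, at 4145 ± 749 in KO libraries and 2995 ± 147 in WT libraries (limma adjusted p 0.175), which was called as higher without KO3 (0.0170). Nr1h2, which encodes LXR beta, averaged 31.5 in KO libraries and 42.8 in WT libraries without passing (0.576), and Nr1h3, which encodes LXR alpha, averaged 1.69 and 1.09, too low to be tested.

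**Figure D4:**
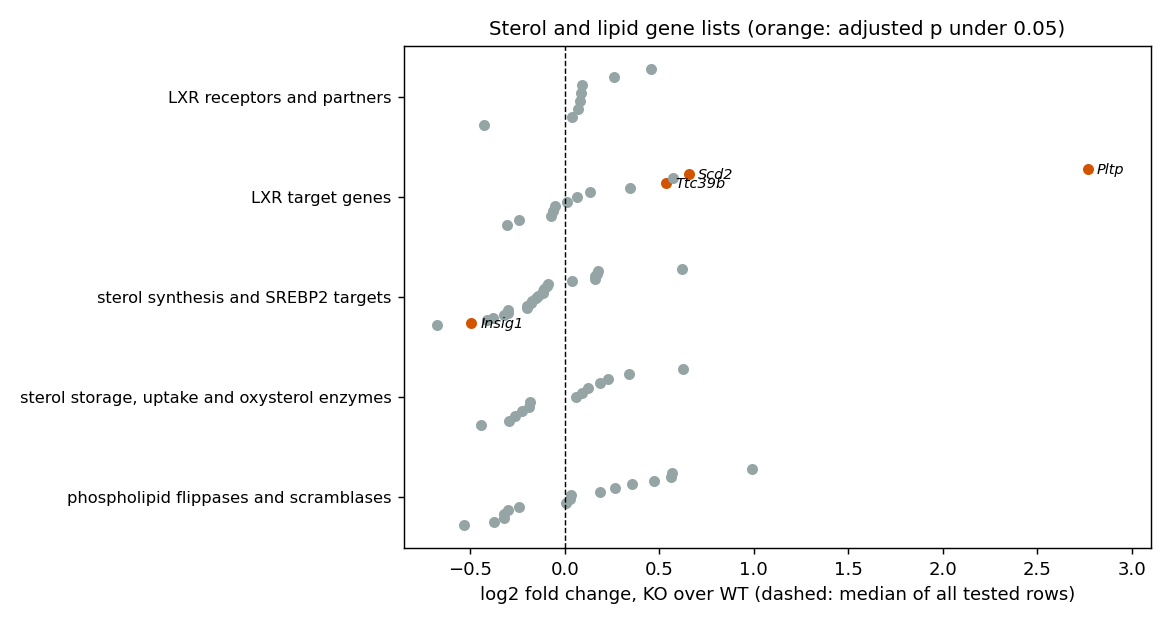
Log2 fold change of KO over WT (horizontal) of each tested gene in 5 sterol and lipid lists (rows); orange points with names passed an adjusted p under 0.05 in limma and the dashed line is the median of all tested rows. Pltp, Scd2 and Ttc39b lie above the line and Insig1 below it, and most other genes lie near it.

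Sterol synthesis genes, which are driven by SREBP2 when cell cholesterol is low, gave 1 fall among 24 tested, with 23 not passing. Of all tested rows, 0.315% were called as falls. The median log2 fold change of the list was -0.15, against 0.0019 over all tested rows. Insig1, which holds SREBP in the endoplasmic reticulum and is itself one of its targets, had 1560, 1845 and 1800 normalized reads in KO1, KO2 and KO3, against 2514, 2335 and 2469 in WT1, WT2 and WT3 (log2 fold change -0.49, SE 0.10, limma adjusted p 0.0472). This only call of the list was lost when any library other than KO3 was left out, where log2 fold changes ran from -0.54 to -0.42, and with voom weights (limma adjusted p 0.0580) or no mean-variance trend (0.158). It was also lost with the replicate block (0.101), scaling to library totals (0.110), upper-quartile scaling (0.172) and Y-linked transcripts as a covariate (0.0632), and in the 2 against 2 comparison (0.530). Sqle, an enzyme of the sterol branch, averaged 677 ± 176 in KO libraries and 1061 ± 48.4 in WT libraries (SD, n = 3 each; limma adjusted p 0.128), and was called as lower without KO2 (0.0294).

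Over the 6 libraries the Abca1 pattern, taken as log2 of normalized reads plus 1, was most like that of Slc35f2 (Pearson r 0.997), Tdrd9 (0.996), Aldh1l2 (0.995), Syt11 (0.994) and Nrp1 (0.994). These points share the difference between the genotypes and the library scaling, and 345 other tested rows had an r above 0.9, so the likeness is a description only. Slc35f2, a membrane transporter gene, averaged 769 ± 55.0 in KO libraries and 363 ± 46.7 in WT libraries (SD, n = 3 each). Within the group of 9, Abca6 (0.984) and Abca5 (0.964) were most like Abca1, Abcg1 had 0.717 and Abca7 -0.85.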

How the data were processed

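The authors deposited 1 table on a log10 scale, found from the values: turned back as 10 to the power of the value minus 1, 100% of values were whole multiples of 1 step per library, within 0.01. Each value is thus the log10 of 1 plus reads over a size factor. STAR, HTSeq, DESeq2 and build mm10 are named, without versions or roles, per the submitters' processing notes. RefSeq accessions were matched to symbols through a GRCm38.p6 gene table (18811 rows) and GENCODE M21 (104 rows), and 133 rows stayed unnamed. The row with the highest total stood for each symbol, and GENCODE M21 exons gave transcript lengths.

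The test was limma 3.58.1 (R 4.3.3) with the mean-variance trend, on log2 of normalized reads plus a pseudocount of 1, in rows whose mean reached 10, with all 6 libraries in the fit, two-sided, with Benjamini-Hochberg adjustment. Fold changes of low genes are understated by the pseudocount. The script was tested on simulated data. Alternatives covered the pseudocount, filter, scaling, variance model, voom weights on recovered reads, a replicate block, rows summed per gene, Y-linked transcripts and leaving out each library. Motifs were searched in the 250 bases before RefSeq starts, for the 7 of 9 genes with a window. Abca6 and Abcg1 had none.

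Genes named beyond the 9 were Trim28, the nearest neighbours, genes with the smallest p or a call in each list, and the 5 rows most like Abca1. Srebf1, Mylip, Nr1h3, Atp11b, Cyp27a1 and the CD4 T cell, macrophage and NK cell markers were named after their values were seen. The 9 genes and all lists were chosen with earlier results of these data known. Read counts are not unique molecules, so intervals from reads cover counting error only.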

Additional observations from a re-analysis of the deposited data

How the results depend on the processing

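Abca1 kept its rise in 18 of 19 alternatives, the exception being the 2 against 2 comparison of libraries nearly without Y-linked transcripts (log2 fold change 1.096). In that comparison, chosen after the data were seen, Abca5 (2.30) and Abca6 (5.19) were not called either, so 0 of the 9 genes were, against 3 with all libraries, and 37 rows were called overall. Abca5 was not called without the mean-variance trend (2.21), with Y-linked transcripts as a covariate (2.21), or without WT1, KO1 or KO2. Its log2 fold change ran from 1.81 to 2.54 when libraries were left out, that of Abca6 from 4.92 to 5.19 and that of Abca2 from 0.54 to 0.81. Abca8b was called with no filter (3.63, limma adjusted p 0.0496). No log2 fold change of the 8 tested genes changed sign in any alternative run. Leaving out 1 library gave 1 to 4 of the genes called, and 113 to 553 rows overall against 196, with 553 without KO3. Without the trend 124 rows were called, and 111 at an adjusted p under 0.01. Under upper-quartile scaling 156 rows rose and 18 fell, against 155 and 41. Correlations of deviations between same-numbered libraries were -0.31, 0.26 and 0.36. With so few libraries these cannot decide whether the numbers pair them. With the replicate block 175 rows and the same count of 3 genes were called. The count of 3 includes Abca6, which was tested only through the KO libraries. Depth limits Abca6, Abca8b and Abca9, which rest on 0 to 60 reads per library.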

Other observations

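Phospholipid flippases and scramblases, which move lipids between the leaflets of a membrane as some ABC proteins do, had 20 of 22 listed genes in the table and 16 tested. Limma called none of them, with or without voom weights, and 5 had an unadjusted p under 0.05, as did 12.7% of all tested rows. Atp8a2, a flippase of aminophospholipids, had 136, 146 and 164 normalized reads in KO1, KO2 and KO3, against 73.9, 61.6 and 89.6 in WT1, WT2 and WT3, and did not pass (log2 fold change 0.99, SE 0.20, limma adjusted p 0.0541). The groups did not overlap. Atp11b, a flippase of endosomes, averaged 21618 ± 5409 in KO libraries and 14386 ± 2151 in WT libraries (SD, n = 3 each; limma adjusted p 0.263), and was called as higher without KO3 (0.00723). Atp8b4 and Atp10a averaged 3398 and 2647 in KO libraries and 4191 and 3450 in WT libraries, without passing (limma adjusted p 0.219 and 0.220).

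Genes of sterol storage, uptake and oxysterol synthesis had 17 of 18 listed genes in the table and 13 tested. Limma called none, with or without voom weights, and 2 had an unadjusted p under 0.05 (12.7% of all tested rows). Stard3, which tethers late endosomes for sterol transfer, averaged 1474 ± 105 in KO libraries and 1768 ± 110 in WT libraries (SD, n = 3 each; limma adjusted p 0.297). Soat1, which esterifies cholesterol for storage, averaged 1847 ± 62.2 and 2280 ± 324 (0.317). Cyp27a1, an oxysterol-making enzyme of macrophages and liver, was at 0, 0 and 52.6 in KO1, KO2 and KO3 and at 1.39, 0 and 10.04 in WT1, WT2 and WT3.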
